A study of Mus musculus with 6 samples.

Results

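Transcripts of 3 genes for T cell surface proteins were followed in mouse CD4+ T cells exposed to tunicamycin: Cd3e (ENSMUSG00000032093), Il7r (ENSMUSG00000003882) and Cd40lg (ENSMUSG00000031132). They were taken by symbol, as 3 of 13685 gene rows, and all 3 were among the 3613 genes that passed the filter on low counts. The cells came from spleen and mesenteric lymph node of C57BL/6 mice and were WT in all 6 libraries. CD4+ cells were isolated by kit, and the CD25- (non-Treg) cells were cultured for 4 h at 1000000 cells per well. The tunicamycin group (3 libraries) received 0.15 µg/mL, and the vehicle group (3 libraries) received vehicle per the treatment protocol, though its titles say no treatment. The labels call the libraries of each group technical replicates and put all 6 in the same batch, and nothing says that they came from separate animals or cultures. The p-values therefore cover the spread between libraries, which may be technical. The sources used here do not give the age, sex or number of the mice.

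Cd3e encodes CD3 epsilon, a signalling subunit that assembles with the T cell receptor chains in the endoplasmic reticulum before the complex reaches the surface. Il7r encodes the alpha chain of the interleukin 7 receptor, which pairs with the common gamma chain and sustains resting T cells. Cd40lg encodes CD40 ligand, a trimeric protein of the tumor necrosis factor superfamily that activated CD4+ T cells show to CD40 on B cells and other antigen-presenting cells. All are membrane proteins made at the endoplasmic reticulum. Tunicamycin inhibits the enzyme encoded by Dpagt1, which starts the lipid-linked glycan used for N-linked glycosylation, and is a common inducer of the unfolded protein response. The data are RNA levels, so glycosylation and surface amount of these proteins were not measured.

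The coding sequences differ in how many N-glycosylation sites they could encode, and these sites are shown because an N-glycan, whose making tunicamycin blocks, could be attached there. The search was for 3 codons in frame on the coding strand: AAC or AAT for asparagine, any codon except those of proline, and then a serine or threonine codon. In the GENCODE M21 transcripts, annotated on build GRCm38, Cd3e (chromosome 9, 44998740 to 45009627, minus strand, 189 codons) held 0 such sites. Il7r (chromosome 15, 9505788 to 9530176, minus strand, 459 codons) held 6, and Cd40lg (chromosome X, 57212143 to 57224042, plus strand, 260 codons) held 1. Below, the site is in capitals, with 9 coding bases on either side, and the name gives the codon number of the asparagine.
Il7r codon 60: tgtgcttttAATGACTCAgacatcaac
Il7r codon 115: ggacaaaagAATTTAACTtgcaaaaat
Il7r codon 177: ggtgaaagcAACTGGACGcatgtatct
Il7r codon 295: acgagtctgAATGTGAGTttcaatccc
Il7r codon 348: cacagtgcaAACCGCTCGcctgagact
Il7r codon 373: ctggctagaAATCTGAGTacctgcaat
Cd40lg codon 239: gtgtttgtcAACGTGACTgaagcaagc

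The first 3 Il7r sites lie in exons 2, 3 and 4 of 8, which encode the part of the receptor outside the cell, at chr15:9525089-9525097, chr15:9516363-9516371 and chr15:9512885-9512893. The other 3 lie in exon 8, which encodes the cytoplasmic tail, out of reach of the glycosylation machinery, at chr15:9508344-9508352, chr15:9508185-9508193 and chr15:9508110-9508118. The Cd40lg site lies in exon 5 of 5, which encodes the extracellular domain that binds CD40, at chrX:57223519-57223527. A match is a run of codons, not a site shown to be used. Such runs are common: 78.3% of 21522 protein-coding genes held at least 1. Among genes with a coding length within 10% of that of Cd3e, Il7r and Cd40lg, the shares were 55.2%, 84.7% and 63.8%.

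The summed counts of the rows analysed ranged from 7412151 to 11211270 per library and were higher in each tunicamycin library than in any vehicle library. Their TPM added up to 319120 to 332870, so other transcripts were not analysed here and these sums are not library depths. Mitochondrially encoded transcripts took 15.5% to 18.6% of the counts. Libraries of a group differed by more than sampling noise, with a chi-square per degree of freedom of 15.8 to 36.1 over genes. In the comparison over all genes, 2 genes were higher and 1 was lower in tunicamycin at an edgeR adjusted p under 0.05, which is 0.083% of the genes tested. Without vehicle replicate 2 the number higher was 1 and without vehicle replicate 3 it was 4, and without vehicle replicate 1 or 2 or tunicamycin replicate 2 or 3 the number lower was 0. Over the 19 other processing choices the number higher ran from 0 to 14 and the number lower from 0 to 22, with 12 and 11 in DESeq2. Replicate numbers are those of the labels.

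Of 10 markers listed for CD4+ T cells 5 were analysed here: Cd28, Cd3d, Cd3e, Cd5 and Trbc2. Their summed level was 2460 to 2630 TPM in vehicle and 2540 to 2720 TPM in tunicamycin, most of it from Trbc2, at 1340 to 1580 TPM, and Cd3e. These genes mark T cells and do not separate CD4+ from CD8+ cells, and Cd4 itself was not analysed here. The only regulatory T cell marker analysed, Il2ra, which encodes the CD25 used for the depletion, was at 6.87 to 8.41 TPM in vehicle and 7.74 to 14.1 TPM in tunicamycin.

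On the per-length TPM scale the order of levels was Il7r, then Cd3e, then Cd40lg in each of the 6 libraries, with no overlap between neighbours. Over both groups, Il7r ranked 48th by mean TPM among the genes tested, Cd3e 63rd and Cd40lg 562nd. The lowest Il7r level, 843.4 TPM in vehicle replicate 3, stood above the highest Cd3e level, 625.7 TPM in vehicle replicate 1. The highest Cd40lg level was 57.16 TPM, in tunicamycin replicate 2. Between the highest and the lowest library, levels differed 1.15-fold for Cd3e, 1.16-fold for Il7r and 1.3-fold for Cd40lg.

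**Figure D1:**
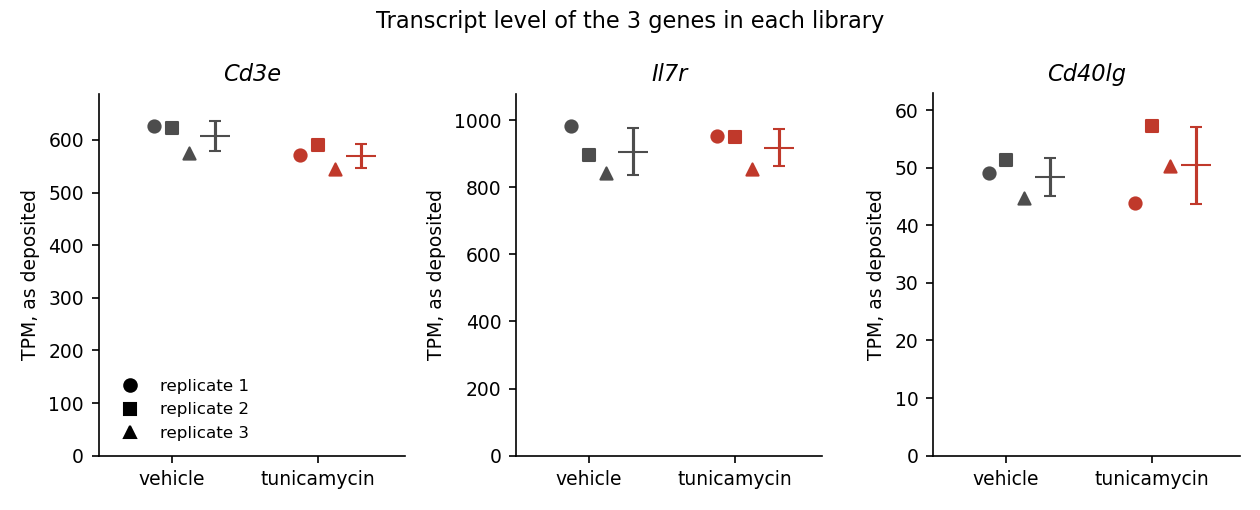
Deposited TPM (y axis, from 0) of Cd3e, Il7r and Cd40lg in 3 vehicle and 3 tunicamycin libraries. Each point is a library, its shape the replicate number, and the bar beside the points is the mean ± SD of the group. The vehicle and tunicamycin points overlap in all 3 panels.

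Neither Cd3e, Il7r nor Cd40lg passed the test between tunicamycin and vehicle over all genes (edgeR quasi-likelihood test, Benjamini-Hochberg threshold 0.05), where the share of genes called was 0.083%. At an unadjusted p under 0.05 stood 1 of the 3, Cd3e, against 6.42% of all genes tested. The 95% interval of the log2 fold change lay within a 1.5-fold change in either direction for all 3, as it did for 52.8% of all genes tested, and so within a 2-fold change, as it did for 64.6%. In bulk cells such as these, fewer cells of a type and less RNA per cell cannot be told apart.

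Cd3e, the CD3 subunit, was at 2793, 2858 and 2666 CPM (counts per 1000000, scaled with TMM factors) in vehicle replicates 1, 2 and 3. The matching tunicamycin values were 2579, 2565 and 2441 CPM. Each tunicamycin library was thus below each vehicle library, a separation that 12.6% of all genes tested showed in one direction or the other. The vehicle mean was 2772 ± 97.7 CPM and the tunicamycin mean 2528 ± 76.0 CPM (SD, n = 3 each). The log2 fold change was -0.13 with an SE of 0.055 and a 95% interval of -0.25 to -0.01 (edgeR unadjusted p = 0.032, adjusted p = 0.68). As a percentage, the estimate was -8.79%, with an interval of -16.0% to -0.92%. In deposited TPM the groups overlapped, with 625.7, 622.4 and 575.0 in vehicle and 571.7, 590.4 and 545.4 in tunicamycin replicates 1, 2 and 3. Between libraries of the same number, tunicamycin minus vehicle was -0.115, -0.156 and -0.127 in log2 CPM and -0.130, -0.076 and -0.076 in log2 TPM for numbers 1, 2 and 3, below 0 for each number on both scales. The log2 fold change of Cd3e was below 0 under each of 19 other processing choices, from -0.16 to -0.09, and was called under none, with adjusted p from 0.13 to 1. Its interval held 0 under 8 of the 19, among them scaling by library totals (-0.21 to 0.03) and limma on log2(TPM + 1) (-0.23 to 0.04). It also did so without vehicle replicate 1 or 2 or tunicamycin replicate 2 or 3. The median over all genes tested was 0.043 with library totals and 0.046 in limma on log2(TPM + 1), against 0.001 in the reported fit.

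Il7r, the interleukin 7 receptor chain, had 6774, 6305 and 5936 CPM in vehicle replicates 1, 2 and 3. The tunicamycin replicates, in the same order, had 6711, 6393 and 5902 CPM. The groups overlapped throughout, and in CPM libraries of the same number lay closer together than libraries of the same group. The group values were 6338 ± 420 CPM and 6336 ± 407 CPM (SD, n = 3 each). The log2 fold change was -0.001 with an SE of 0.069 and a 95% interval of -0.15 to 0.15, or -9.9% to 10.9% (edgeR adjusted p = 1). On the TPM scale Il7r was at 981.5, 895.2 and 843.4 in vehicle and 951.9, 948.6 and 853.8 in tunicamycin. There, tunicamycin replicates 1 and 2 lay closer to each other than to the vehicle libraries of their number. Between libraries of the same number, tunicamycin minus vehicle was -0.014, 0.020 and -0.008 log2 CPM for numbers 1, 2 and 3. With an estimate this near 0 its sign had no fixed direction: it was 0.048 without vehicle replicate 1 and 0.050 without tunicamycin replicate 3.

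Cd40lg, the activation-induced ligand, was at 154.9, 164.7 and 146.6 CPM in vehicle replicates 1, 2 and 3. The tunicamycin replicates had 139.8, 177.1 and 160.7 CPM in that order. Tunicamycin held both the lowest and the highest of the 6 libraries. The group values were 155.4 ± 9.06 CPM and 159.2 ± 18.7 CPM (SD, n = 3 each). The log2 fold change was 0.04 with an SE of 0.096 and a 95% interval of -0.17 to 0.25, or -11.4% to 18.6% (edgeR adjusted p = 0.98). On the TPM scale Cd40lg was at 49.09, 51.30 and 44.80 in vehicle and 43.81, 57.16 and 50.35 in tunicamycin. The difference between libraries of the same number was -0.147, 0.105 and 0.133 log2 CPM, so number 1 went the other way from numbers 2 and 3. The estimate changed sign without vehicle replicate 3 (-0.005) or tunicamycin replicate 2 (-0.044), and was 0.120 without tunicamycin replicate 1.

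**Figure D2:**
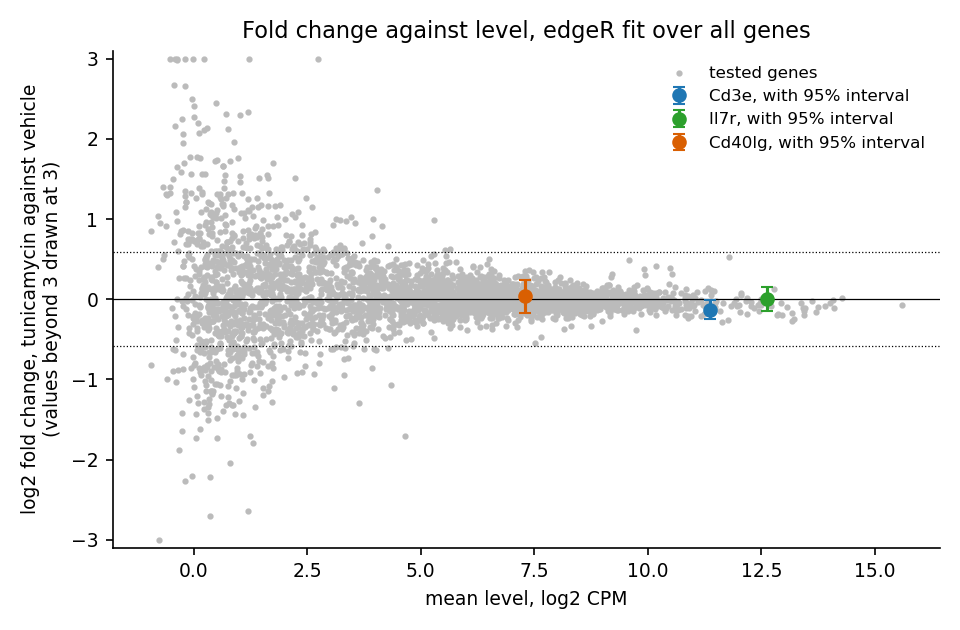
Log2 fold change of tunicamycin against vehicle (y axis) against mean level in log2 CPM (x axis) for the genes tested, in grey, with Cd3e, Il7r and Cd40lg coloured and their 95% intervals drawn. Dotted lines mark a 1.5-fold change, and the intervals of the 3 genes lie between them.

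Counting error was small beside the spread between libraries. It came to 0.584% to 0.694% of the Cd3e count, 0.370% to 0.460% of the Il7r count and 2.22% to 2.95% of the Cd40lg count. The coefficient of variation of CPM between libraries of a group was 3.53% and 3.01% for Cd3e in vehicle and tunicamycin, 6.63% and 6.43% for Il7r, and 5.83% and 11.8% for Cd40lg. Of the 200 genes nearest to Cd3e in mean log2 CPM, 43 had a smaller SD within groups. For Il7r 146 of its 200 nearest genes had a smaller SD, and for Cd40lg 147 of 200. The nearest genes of Cd3e and Il7r covered a wide range of level, 9.57 to 13.16 and 9.68 to 14.27 log2 CPM. Those of Cd40lg lay at 7.07 to 7.52. The 95% interval reached 0.119, 0.150 and 0.210 log2 to either side of the estimate for Cd3e, Il7r and Cd40lg, against medians of 0.130, 0.131 and 0.191 for the nearest genes. Differences smaller than these widths were not detectable in this fit, and larger ones could be missed as well. Cd3e, at -0.133, lay beyond its own width and was not called (edgeR adjusted p = 0.68). This fit has no replicate block. With the replicate number as a block the widths were 0.083, 0.081 and 0.172.

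**Figure D3:**
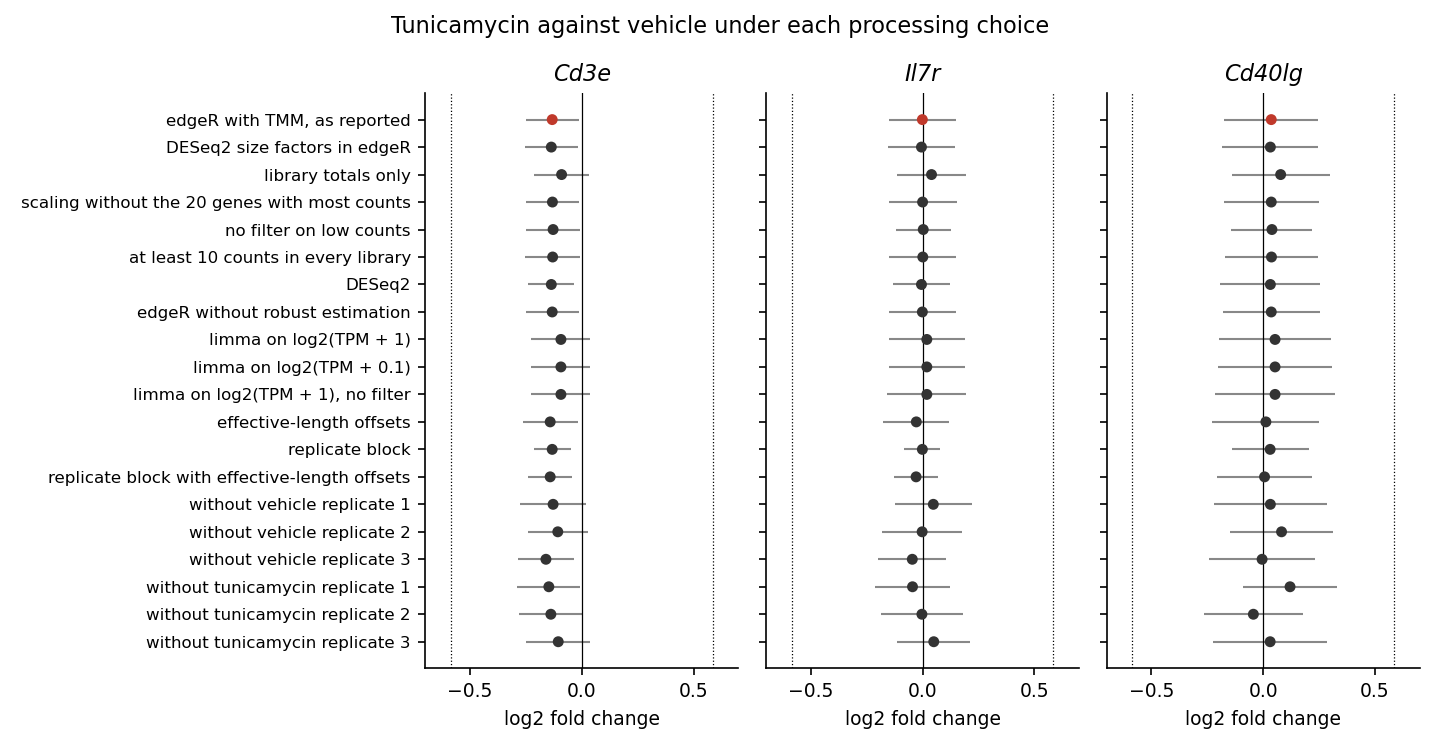
Log2 fold change (x axis, points) with 95% interval (lines) of Cd3e, Il7r and Cd40lg for the reported fit, in red, and 19 other processing choices, 1 per line. Dotted lines mark a 1.5-fold change. The Cd3e points all lie below 0, from -0.16 to -0.09, while the Il7r and Cd40lg points lie on both sides.

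Deposited TPM rests on lengths that the authors' quantification set per library, so the ratio of count to TPM can shift a fold change. For these genes that ratio hardly differed: tunicamycin minus vehicle was 0.010 for Cd3e, 0.029 for Il7r and 0.025 for Cd40lg in log2, relative to the median gene of each library. The log2 difference in mean log2 TPM was -0.09 for Cd3e, 0.02 for Il7r and 0.05 for Cd40lg. With offsets for the ratio in the edgeR fit, the log2 fold changes were -0.14, -0.03 and 0.01.

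Ratios between 2 of the genes in the same library do not depend on scaling between libraries. Il7r stood at 1.44 to 1.66 times the Cd3e level in TPM. The log2 ratio of Il7r to Cd3e was 0.649, 0.524 and 0.553 in vehicle replicates 1, 2 and 3, against 0.735, 0.684 and 0.647 for tunicamycin in the same order. The groups met only where vehicle replicate 1 lay just above tunicamycin replicate 3, and the difference was 0.113 (exact permutation test, 2-sided p = 0.2, adjusted p = 0.6 over 3 ratios). Cd3e stood at 10.3 to 13.0 times the Cd40lg level, and the log2 ratio of Cd40lg to Cd3e averaged -3.65 ± 0.044 over the vehicle libraries and -3.50 ± 0.178 over the tunicamycin libraries (SD, n = 3 each, exact permutation p = 0.4, adjusted p = 0.6). Il7r stood at 16.6 to 21.7 times the Cd40lg level, and the log2 ratio of Cd40lg to Il7r averaged -4.23 ± 0.098 over the vehicle libraries and -4.19 ± 0.216 over the tunicamycin libraries (SD, n = 3 each, exact permutation p = 0.8, adjusted p = 0.8). With 3 libraries against 3 an exact permutation test cannot go below p = 0.1. Tunicamycin replicate 1 had the lowest of the 6 values in both ratios with Cd40lg, and the difference in the ratio to Cd3e was 0.148, 0.249 without that library and 0.080 without tunicamycin replicate 2. The difference in the Cd40lg to Il7r ratio, 0.034, was below 0 without vehicle replicate 1 (-0.013) or tunicamycin replicate 2 (-0.036) or 3 (-0.020).

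**Figure D4:**
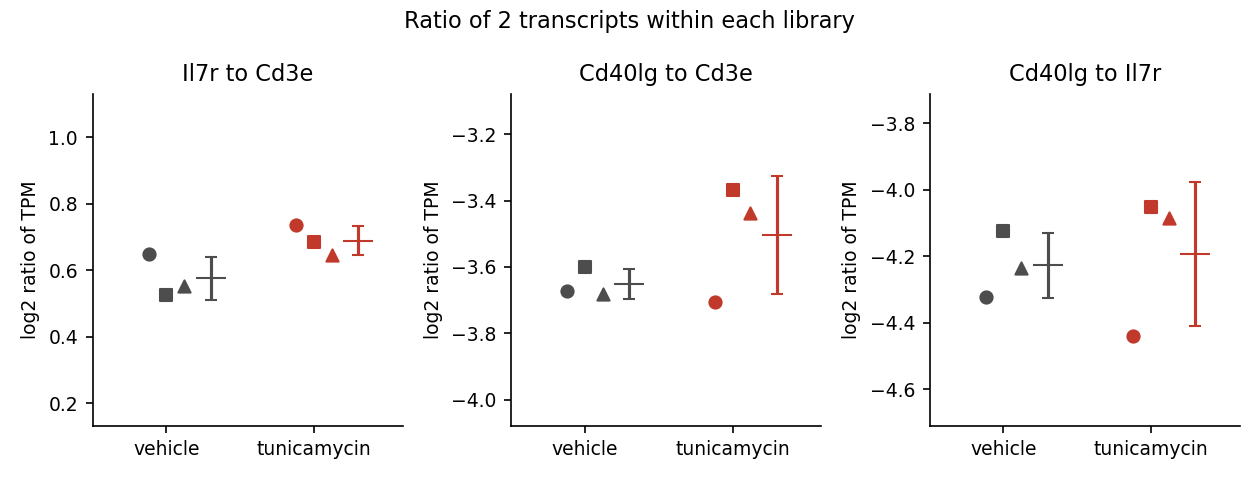
Log2 ratio of deposited TPM between 2 of the genes (y axis, each panel spanning 1 log2 unit) in each library, by group, with the replicate number as the shape and mean ± SD beside the points. In the panel of Il7r to Cd3e the tunicamycin libraries lie at 0.647 to 0.735, and vehicle replicate 1 lies among them at 0.649.

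The genes around these 3 in their pathways were read from 12 lists. Many listed genes were not tested, so a list does not cover its whole pathway. The share tested ran from 4 of 31 for proximal T cell receptor signalling to 17 of 27 for early T cell activation. It was 3 of 7 for the T cell receptor complex, 7 of 29 for the interleukin 7 receptor pathway and 3 of 20 for the calcium and NFAT route. Together the lists held 85 tested genes. Of these 0 were called by edgeR, by DESeq2 or by limma on log2(TPM + 1), and 0 by edgeR with a replicate block. In edgeR 10 of the 85 stood at an unadjusted p under 0.05, where 6.42% of all genes tested did. The median log2 fold change of the 85 was -0.01, against 0.00 for all genes tested, and ran from -0.04 to 0.05 over the other processing choices. The median over all genes tested ran from -0.003 to 0.064 over these choices. The counts of 0 called genes in the lists below are part of these. Whether a list differs from other genes was not tested.

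Of 3 tested genes of the T cell receptor complex, 0 passed in edgeR, and the 1 with an unadjusted p under 0.05 was Cd3e. Cd3d, the CD3 delta subunit encoded next to Cd3e, was at 0.03 (95% interval -0.08 to 0.15), with 1070, 1070 and 1120 CPM in vehicle and 1150, 1060 and 1130 CPM in tunicamycin. Trbc2, a constant region of the receptor beta chain, was at 0.11 (95% interval -0.02 to 0.24), with its 3 tunicamycin libraries above the vehicle libraries. A separation in one direction or the other was shown by 12.6% of all genes tested. The 3 subunits thus had no common sign, and differences between them were not tested. Reads of Trbc2 can be shared with its near-identical copy Trbc1, so its value is uncertain. Of 4 proximal signalling genes, 0 passed and 0 had an unadjusted p under 0.05. Lat, the adaptor phosphorylated after receptor triggering, was at 0.02 (95% interval -0.11 to 0.14), and Csk, a kinase that restrains Lck, was at -0.04 (95% interval -0.18 to 0.09).

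Of 7 tested genes of the interleukin 7 receptor pathway, edgeR called 0, and 1 stood at an unadjusted p under 0.05. That gene, Bcl2, the survival factor induced by interleukin 7, was named after its values were seen and was at -0.15 (95% interval -0.30 to -0.01, edgeR adjusted p = 0.71). It stood at 287, 310 and 284 CPM in vehicle and 254, 266 and 273 CPM in tunicamycin, without overlap. Such a lack of overlap was found for 12.6% of all genes tested. Pim1, a kinase gene induced through STAT5, was at -0.01 (95% interval -0.12 to 0.10). Foxo1, a transcription factor that drives Il7r expression in resting T cells, was at -0.03 (95% interval -0.14 to 0.09). Of the receptors that share the common gamma chain, Il2ra was the only other one tested, at 0.30 (95% interval -0.04 to 0.63). The list for naive and quiescent T cells held 10 tested genes, Il7r included, of which 0 passed and 0 had an unadjusted p under 0.05. S1pr1, the receptor for exit from lymphoid organs, was at -0.05 (95% interval -0.18 to 0.09), and Btg1, a regulator of quiescence, at -0.07 (95% interval -0.19 to 0.05). The median of this list was -0.05 and turned to 0.02 on log2(TPM + 1), where 4 of the 10 were below 0 rather than 9. The median over all genes tested moved upward too, from 0.001 to 0.046, so the list stayed below it on both scales.

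Of 8 tested ligands of the tumor necrosis factor superfamily, Cd40lg included, edgeR called 0, and 1 stood at an unadjusted p under 0.05. That gene, Tnfsf4, encodes OX40 ligand and was named after its values were seen. It had 77, 21 and 43 counts in vehicle and 15, 14 and 2 counts in tunicamycin. On the log2 scale its estimate was -2.65 (95% interval -4.31 to -0.98, edgeR adjusted p = 0.41). Ltb, lymphotoxin beta, was at -0.11 (95% interval -0.26 to 0.03), and Tnfsf8, the CD30 ligand, at 0.17 (95% interval -0.47 to 0.81). Of 5 genes of CD40 and its signalling, 0 passed and 0 had an unadjusted p under 0.05. Rela, a subunit of NF-kappaB, was at -0.01 (95% interval -0.12 to 0.11), and Map3k14, the NF-kappaB-inducing kinase, at -0.03 (95% interval -0.17 to 0.11). CD40 itself was not analysed here. Of 3 genes of the calcium and NFAT route that switches on Cd40lg, 0 passed and 0 had an unadjusted p under 0.05. Stim1, the calcium sensor of the endoplasmic reticulum, was at -0.05 (95% interval -0.17 to 0.07), and Egr3 at -0.22 (95% interval -1.82 to 1.39).

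Of 6 tested costimulation and adhesion receptors, edgeR called 0, and 1 stood at an unadjusted p under 0.05. Cd2, the receptor for CD48, was that gene, at -0.13 (95% interval -0.26 to 0.00, edgeR adjusted p = 0.73), and Cd28 was at 0.01 (95% interval -0.10 to 0.12). Of 17 early activation genes, Cd40lg included, 0 passed and 1 had an unadjusted p under 0.05. That was Ier3, named after its values were seen, with 5, 3 and 0 counts in vehicle and 22, 19 and 22 counts in tunicamycin. These counts are not scaled, and the summed counts were higher in the tunicamycin libraries. In the fit Ier3 was at 2.42 (95% interval 0.16 to 4.67, edgeR adjusted p = 0.71), at a low mean level of 0.01 log2 CPM. Junb was at 0.02 (95% interval -0.28 to 0.31) and Jund at -0.02 (95% interval -0.13 to 0.09).

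Of 40 genes listed for the unfolded protein response 13 were tested, and Hspa5, Ddit3, Herpud1 and Xbp1 were not among them. Of the 13, edgeR called 0, and the chaperone gene Calr was the 1 at an unadjusted p under 0.05. The 13 genes do not cover the whole response, so they cannot show whether it was induced. Calr was at -0.14 (95% interval -0.25 to -0.03, edgeR adjusted p = 0.63) and Atf4 at -0.05 (95% interval -0.19 to 0.10). The estimate of Calr had the same sign as that of Cd3e and a similar size, and neither passed. Of 15 genes of N-glycosylation and signal peptide targeting, 0 passed and 4 had an unadjusted p under 0.05, against 6.42% of all genes tested. The groups did not overlap in CPM for 4 of the 15, against 12.6% of all genes tested. Ganab, a glucosidase that trims new glycans, was at 0.14 (95% interval 0.02 to 0.25). Sec62, part of the translocation channel complex, was at -0.15 (95% interval -0.28 to -0.02), while its TPM averaged 132 ± 16.9 over the vehicle and 96.6 ± 15.2 over the tunicamycin libraries (SD, n = 3 each), a wider gap than in counts. The other two, named after their values were seen, were Dad1 at -0.17 (95% interval -0.30 to -0.04) and Srp9 at -0.18 (95% interval -0.34 to -0.02). Both lists held estimates of either sign: 9 of 13 and 8 of 15 were below 0, and on log2(TPM + 1) 6 and 7 were. The median over all genes tested was 0.046 on that scale, against 0.001 in edgeR.

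**Figure D5:**
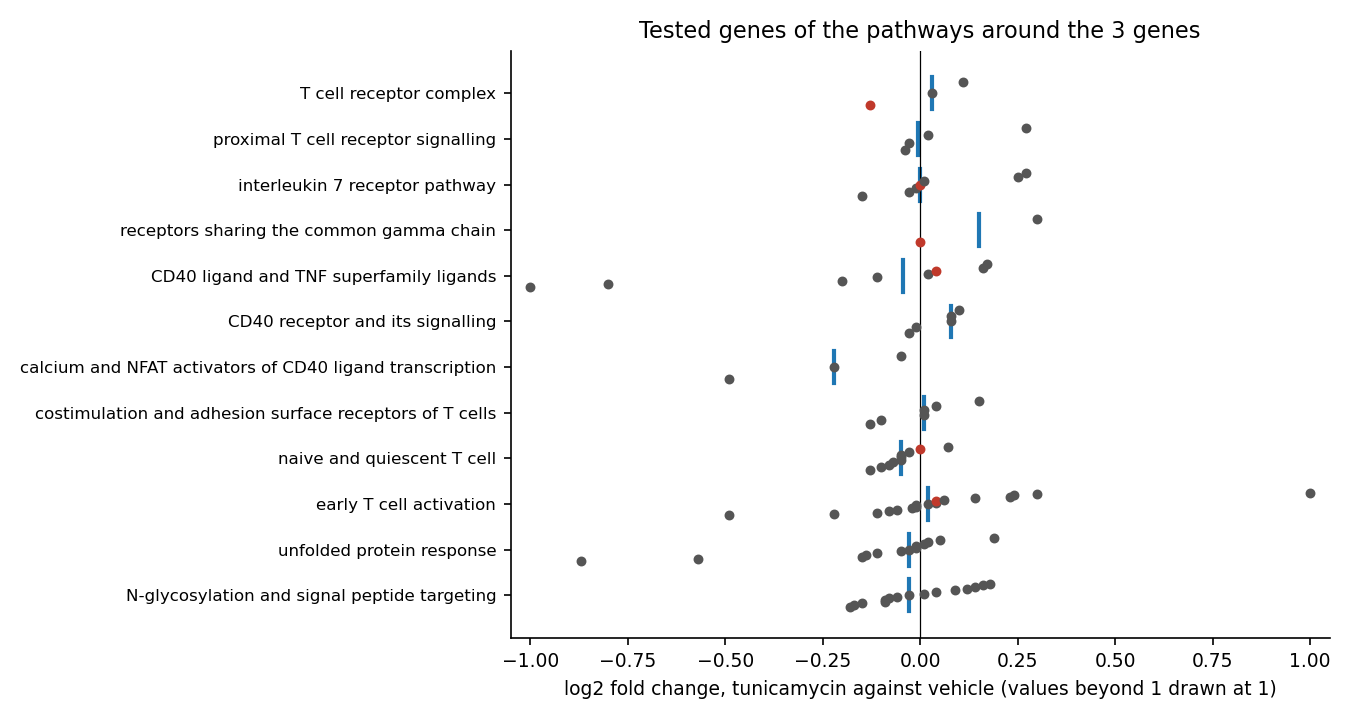
Log2 fold change of tunicamycin against vehicle (x axis, values beyond 1 drawn at 1) of the tested genes in each pathway list (1 row per list). Cd3e, Il7r and Cd40lg are red, other genes grey, and the blue bar is the median of the list. The medians lie between -0.22, for the list of 3 calcium and NFAT genes, and 0.15, for the pair of common gamma chain receptors.

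Markers of other cell types were read in the same libraries. Of 10 NK cell markers 7 were analysed, with a summed level of 10.3 to 12.3 TPM in vehicle and 13.1 to 20 TPM in tunicamycin. These sums did not overlap, and 12.6% of all genes tested separated in CPM. The 2 markers with the highest levels overlapped: Prf1 at 6.75 to 8.39 and 7.4 to 8.22 TPM, Gzma at 1.41 to 2.73 and 2.32 to 5.74 TPM. Klre1 and Klra4 did not overlap and reached 1.53 and 1.35 TPM. EdgeR called none of the 6 markers tested. Of 9 B cell markers 3 were analysed, at a summed 0.886 to 1.22 TPM in vehicle and 0.745 to 1.20 TPM in tunicamycin. The only CD8 T cell marker analysed, Cd8b1, was at 9.47 to 10.8 TPM and 10.5 to 11.9 TPM. Of 7 markers of innate lymphoid cells, which also carry the interleukin 7 receptor, 2 were analysed. Il22 was at 0 in all 6 libraries, so the sum was that of Klrg1 alone. It was 1.26 to 1.59 TPM in vehicle and 1.59 to 2.49 TPM in tunicamycin. Of 8 plasma cell markers 5 were analysed, at a summed 60.4 to 430 TPM in vehicle and 53.3 to 454 TPM in tunicamycin. Of 8 macrophage and monocyte markers 6 were analysed, at 4.08 to 13.2 TPM and 6.41 to 12.8 TPM. Of 6 gamma-delta T cell markers 3 were analysed, at 3.27 to 7.16 TPM and 2.51 to 7.25 TPM. Of 9 erythroid and platelet markers 7 were analysed, at 3.28 to 12.4 TPM and 2.31 to 7.77 TPM. Of 6 neutrophil markers 3 were analysed, at 0 to 1.45 TPM and 0.212 to 1.19 TPM, with Ly6g at 0 in all libraries. The only dendritic cell marker analysed, Xcr1, reached 0.818 TPM, and the only stromal one, Ccl21a, 0.0765 TPM. The part of these cells in the values of Cd3e, Il7r and Cd40lg was not tested.

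The genes most like each of the 3 were sought over the 6 libraries, by the root mean square difference of log2 CPM after centring each gene on its own mean, among the 1903 other genes whose mean reached 5 log2 CPM. Nearest to Cd3e were Pip4k2b (0.025), Bicra (0.028) and Evi2b (0.030), against a median of 0.127 over all candidates. Nearest to Il7r were Efhd2 (0.024), Ap3b1 (0.025) and Samd1 (0.026), against a median of 0.131. Nearest to Cd40lg were Zfp7 (0.042), Nt5dc3 (0.044) and Brms1l (0.044), against a median of 0.162. By the same measure Cd3e and Il7r stood at 0.085 from each other, below the median of either gene. Cd3e and Cd40lg stood at 0.136 and Il7r and Cd40lg at 0.145, each between the medians of the pair.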

How the data were processed

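RNA of 6 libraries was sequenced as paired reads of 150 bp from 200 ng of total RNA, per the labels' protocols. Tools named in the submitters' processing notes are Salmon, bcl2fastq and DESeq2, without role or version, and the build is GRCm39. For the transcript annotation, none is named in the sources used here. The authors deposited estimated counts per gene, not scaled to depth, and TPM values for the same 13685 rows. All 6 libraries were at 0 for 6932 of them. Symbols were matched for 13627 rows.

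The deposited counts were rounded and tested with edgeR 4.0.16 (R 4.3.3): filterByExpr on the groups, TMM factors, robust dispersion estimates, the quasi-likelihood F test (2-sided), and Benjamini-Hochberg adjustment over 3613 genes. Fold changes carry 95% intervals from that fit. CPM uses TMM-scaled library sizes, and log2 CPM a prior count of 2. The fit was also run on simulated data, with an outcome that is not reported here. Alternatives were other scalings and filters, DESeq2 1.42.0, limma 3.58.1 on log2(TPM + 1) and log2(TPM + 0.1), offsets for effective length (the ratio of deposited count to TPM), a replicate block and leaving out each library. Coding sequences came from GENCODE M21 (GRCm38), and its positions were not converted to GRCm39.

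The 3 genes, 12 pathway lists and 13 marker lists were chosen with earlier results of these data known. Named were the 3 genes, list members past the threshold (up to 4 per list, otherwise up to 2 with the highest mean level), and per gene the 3 most alike. Other names are given as chosen after their values were seen, save Cd2, Calr, Ganab and Sec62, which the rule also named.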

Additional observations from a re-analysis of the deposited data

How the results depend on the processing

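None of Cd3e, Il7r and Cd40lg was called under any of the 19 alternatives. The estimate for Cd3e kept its sign, and ran from -0.161 to -0.106 when 1 library was left out. For Il7r it was 0.040 with library totals, 0.000 with scaling without the 20 genes with most counts, 0.003 without a filter, 0.001 with at least 10 counts in every library and 0.019 in each limma fit on TPM, against -0.001. It ran from -0.046 to 0.050 when 1 library was left out. For Cd40lg that range was -0.044 to 0.120. The median over all genes tested was 0.001 in the reported fit, 0.043 with library totals and 0.046 in limma on log2(TPM + 1). The ratio of Cd40lg to Il7r ran from -0.036 to 0.159 when 1 library was left out, and the other ratios kept their sign.

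The number of genes called higher and lower, 2 and 1, was 2 and 2 with DESeq2 size factors in edgeR, 2 and 0 with library totals, 10 and 6 without a filter, 0 and 1 with at least 10 counts in every library, and 12 and 11 in DESeq2. It was 2 and 0 without robust estimation, 1 and 0 in limma on log2(TPM + 1), with or without a filter, 2 and 0 on log2(TPM + 0.1), and 2 and 0 with effective-length offsets. When 1 library was left out it ran from 1 to 4 higher and from 0 to 1 lower. The cause of these moves was not tested.

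With the replicate number as a block, 14 genes were higher and 22 lower. Adding effective-length offsets to the block gave 3 and 2. With the block alone Cd3e was at -0.133 (edgeR adjusted p = 0.13, interval -0.216 to -0.050), Il7r at -0.001 (interval -0.082 to 0.080) and Cd40lg at 0.031 (interval -0.141 to 0.203), and no call of the 3 changed. The interval reached 0.083, 0.081 and 0.172 to either side of these estimates, against 0.119, 0.150 and 0.210 without the block. Deviations of same-numbered libraries from their group means correlated at 0.037, 0.187 and 0.107 over 3613 genes. For the 1904 genes whose mean reached 5 log2 CPM they correlated at 0.303, 0.306 and 0.316, and libraries of different numbers all correlated below 0. Values below 0 for different numbers are in part set by centring each group on its own mean. Each library correlated best with its own number, a hint of pairing from the data. The library names match by number too: each tunicamycin name is the vehicle name of that number with plusTun added. The labels state no shared source and 1 of the 3 correlations over all genes tested was under 0.1. The reported fit therefore did not pair the libraries, though a pairing remains possible. Plasma cell transcripts such as Igkc also followed the replicate number. If the libraries are paired, the intervals of the fit without the block leave that pairing out, and so do the permutation tests of the ratios. Among the 3 genes counting error was largest for Cd40lg, where it reached 2.95%. That was below its coefficient of variation between libraries of a group, 5.83% in vehicle and 11.8% in tunicamycin.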

Other observations

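Among early activation genes that T cell receptor signals switch on, 3 differed far more between libraries than Cd40lg did. They were chosen after their values were seen. Nr4a1, an orphan nuclear receptor, was at 327, 674 and 592 CPM in vehicle replicates 1, 2 and 3 and at 265, 824 and 669 CPM in tunicamycin replicates 1, 2 and 3. Fosb, a subunit of AP-1, was at 51.4, 132 and 92.8 CPM and at 45.8, 162 and 117 CPM in the same order. Egr3, a zinc finger factor, was at 12.2, 42.3 and 33.1 CPM and at 10.8, 38.8 and 25.9 CPM. The libraries numbered 1 were the lowest of their group for all 3 genes. The highest library was 3.11, 3.53 and 3.92 times the lowest, against 1.27 times for Cd40lg, whose lowest library was tunicamycin replicate 1 but whose lowest vehicle library was replicate 3. None of the 3 was called by edgeR, and the interval of Nr4a1 was -1.36 to 1.64. Whether these genes and Cd40lg share a source of variation was not tested.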
